A study of Mus musculus with 31 samples.

Results

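Peg3 and 9 other imprinted genes that lie outside the imprinted clusters of chromosome 12 and distal chromosome 7 were followed in fibroblasts with and without Xist. They were Peg3, Nnat, Slc38a4, Plagl1, Igf2r, Grb10, Mest, Ndn, Snrpn and Impact, chosen by name, and each was represented by the RefSeq transcript with the most reads. These were 10 of the 24470 gene symbols in the exon table, and all 10 passed the filter on low counts that left 12910 genes to test. The series as a whole asked what Xist, the noncoding RNA that spreads over the silenced X of female mammals, does for the maintained inactive X, and none of the 10 genes is X-linked.

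RNA was compared in 3 groups of 2 libraries, all from female dermal fibroblasts of a CAST/Ei x 129/Sv/Jae hybrid grown in standard fibroblast medium without treatment. The wild-type (WT) group carried Xist on both X chromosomes. The other groups were 2 cell lines of the genotype XaWT XiΔXist, in which the active X (Xa) was wild type and Xist was deleted on the inactive X (Xi). The first is called line 1 here, and the second, labelled #2, is called line 2. Each mutant group is thus a single cell line, and the labels do not say whether the lines were cloned, so the deletion and the history of a line cannot be told apart within 1 line. The labels call the libraries biological replicates without naming separate cultures, and p-values measure only the spread between these libraries.

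An imprinted gene is transcribed mainly from the copy inherited from 1 parent. In most cases DNA methylation laid down in the egg or the sperm marks the copies differently and is kept through later cell divisions. Many of these genes act on growth, metabolism or the nervous system, and several stay active in cultured fibroblasts. In mouse tissues Igf2r and, outside the brain, Grb10 are read mainly from the maternal copy, and the other 8 mainly from the paternal copy. The RNA values below sum both parental copies, since the allele values in the series cover X-linked genes, and whether an imprint was kept was not analysed here.

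Promoter windows are shown for the 5 genes whose RNA fell in line 1, since CG dinucleotides are the main sites of DNA methylation. Whether these windows carry the methylation of an imprint was not analysed here. The windows run from 250 bases before to 50 bases after the start (RefSeq, GRCm38.p6), and CG is in capitals. The window of Peg3 is chr7:6730370-6730669 on the minus strand and held 13 CG, that of Nnat chr2:157559828-157560127 on the plus strand with 17 CG, and that of Slc38a4 chr15:97055907-97056206 on the minus strand with 5 CG. The window of Ndn is chr7:62348027-62348326 on the plus strand with 11 CG, and that of Grb10 chr11:12037371-12037670 on the minus strand with 45 CG.
Peg3: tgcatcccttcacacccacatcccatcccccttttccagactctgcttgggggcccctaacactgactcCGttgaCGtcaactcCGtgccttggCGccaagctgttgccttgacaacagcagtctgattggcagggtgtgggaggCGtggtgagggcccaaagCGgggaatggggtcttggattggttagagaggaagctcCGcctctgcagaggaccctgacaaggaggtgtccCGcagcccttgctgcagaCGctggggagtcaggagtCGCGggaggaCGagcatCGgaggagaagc
Nnat: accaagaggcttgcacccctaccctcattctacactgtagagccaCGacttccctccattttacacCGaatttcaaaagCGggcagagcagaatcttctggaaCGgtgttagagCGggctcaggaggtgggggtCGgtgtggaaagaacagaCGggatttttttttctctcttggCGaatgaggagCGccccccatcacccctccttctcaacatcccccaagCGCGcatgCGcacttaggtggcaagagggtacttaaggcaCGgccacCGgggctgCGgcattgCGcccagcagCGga
Slc38a4: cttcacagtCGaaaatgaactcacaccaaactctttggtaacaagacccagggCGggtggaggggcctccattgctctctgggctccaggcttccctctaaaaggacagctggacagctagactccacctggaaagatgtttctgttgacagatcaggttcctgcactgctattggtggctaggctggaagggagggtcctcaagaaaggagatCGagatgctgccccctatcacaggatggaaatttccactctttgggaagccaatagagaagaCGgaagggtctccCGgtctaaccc
Ndn: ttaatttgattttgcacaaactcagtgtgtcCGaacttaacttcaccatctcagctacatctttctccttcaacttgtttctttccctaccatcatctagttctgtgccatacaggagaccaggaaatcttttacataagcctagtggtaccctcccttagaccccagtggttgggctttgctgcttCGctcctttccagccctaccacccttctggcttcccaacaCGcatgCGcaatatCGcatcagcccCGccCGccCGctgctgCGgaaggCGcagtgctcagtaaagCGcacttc
Grb10: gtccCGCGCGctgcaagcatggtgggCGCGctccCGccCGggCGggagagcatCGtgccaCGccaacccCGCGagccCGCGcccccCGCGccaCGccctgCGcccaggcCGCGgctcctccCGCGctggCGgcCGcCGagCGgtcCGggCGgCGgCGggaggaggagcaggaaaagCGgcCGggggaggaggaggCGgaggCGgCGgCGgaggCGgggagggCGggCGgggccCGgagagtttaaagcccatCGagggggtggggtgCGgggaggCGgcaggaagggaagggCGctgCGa

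These promoters differed widely in their number of CG. Over all 32851 windows of this length the median was 7 CG, and 62% of windows held at least the 5 CG of Slc38a4, while 1.93% held at least the 45 CG of Grb10. Among genes that did not pass the test in either line the windows held 34 CG for Igf2r, 26 for Plagl1, 17 for Mest and 7 for Snrpn. Thus 7 of the 9 genes with a window lay above the median, among genes that fell and genes that did not. The hexamer TGCCGC, which the imprint-protecting zinc finger protein ZFP57 binds when its CG is methylated, was sought on both strands (its CG is among those counted above). It was present once in the windows of Nnat, Grb10, Plagl1 and Snrpn and 2 times in that of Mest, so in 5 of 9 genes, against 11.6% of all windows. The letters GCCAT, the core of the YY1 motif, were present once in the windows of Ndn, Plagl1 and Snrpn, so in 3 of 9, against 40.5% of all windows. Peg3, Slc38a4 and Igf2r held neither motif within these 300 bases.

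Xist RNA was nearly absent from both lines. Its level in CPM, read counts scaled to libraries of 1 M counts (M, 1e+06), was 633 and 429 in the WT libraries, against 1.08 and 0.273 for line 1 and 0.969 and 0.282 for line 2, so all 4 mutant libraries carried the labelled loss. The log2 fold change was -9.85 (SE 0.47, edgeR adjusted p = 0.000276) in line 1 and -9.88 (SE 0.46, edgeR adjusted p = 0.00178) in line 2. Counts used per library ranged from 3.81 M to 7.07 M, and replicate 1 was the shallower in every group. Differences between replicates 1 and 2 were correlated between groups (Pearson's r across genes 0.528 to 0.594), so a fit with the replicate number as a block is given beside each printed fold change of a tested gene whose call it changed.

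The fibroblast label was met by the markers, and marker lists of some other cells shifted with the groups. All 10 fibroblast markers, among them Col1a1 and Pdgfra, were detected, with a summed level of 5251 to 6379 CPM over the WT libraries, 4314 to 6877 over those of line 1 and 5218 to 6516 over those of line 2. Of 8 keratinocyte markers, Krt5, Krt14 and Krt1 were at or near 0 everywhere, but the list summed to 49.01 to 50.4 CPM over the WT libraries, 9.69 to 11.4 over those of line 1 and 12.0 to 18.9 over those of line 2, most of it in WT from the desmosomal gene Dsp (33.3 and 39.4 CPM). Of 7 leukocyte markers, Ptprc, Adgre1 and Itgam were at or near 0, and the list summed to 18.2 to 18.7 CPM over the WT libraries, 28.7 to 29.7 over those of line 1 and 26.4 to 29.9 over those of line 2. Of the 3 tested, edgeR called 1 higher and 1 lower in line 1, and 0 in line 2. Cd14 had 3.54 and 3.36 CPM in the WT libraries, 10.8 and 19.9 in line 1 and 6.30 and 7.33 in line 2. Lyz2 went the other way in line 1, with 11.4 and 12.2, then 4.87 and 1.91, then 15.5 and 17.6. The 6 endothelial markers summed to 10.4 to 12.4 CPM over the WT libraries, 3.24 to 3.68 over those of line 1 and 5.08 to 6.54 over those of line 2. Melanocyte and Schwann markers (8 genes, Dct, Tyr and Sox10 at or near 0) summed to 21.0 to 29.6, 63.6 to 66.5 and 14.9 to 19.4 CPM in the same order of groups. The higher sum in line 1 came from Mitf alone (WT libraries 11.6 and 9.44 CPM, line 1 libraries 55.4 and 54.5), and in line 1 edgeR called 1 of the 4 tested genes of this list higher and 1 lower, with a median log2 fold change of -0.06. The 6 adipocyte markers, with Adipoq and Plin1 at or near 0, summed to 37.9 to 57.8, 15.3 to 19.2 and 33.2 to 53.6 CPM. The 6 skeletal muscle markers summed to at most 8.00 CPM in any library. The 6 neuron markers, carried by Map2 and Tubb3 and with Rbfox3 and Snap25 at or near 0, summed to 179.9 to 207.7 CPM over the WT libraries, 60.1 to 114 over those of line 1 and 211 to 239 over those of line 2. Of the 3 tested genes of this list, edgeR called 2 lower and 0 higher in each line. The part of these shifts in the results below was not tested.

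In line 1, 5 of the 10 imprinted genes fell and none passed the test upwards, and in line 2 only Nnat and Slc38a4 fell. Genes were called at a Benjamini-Hochberg adjusted p under 0.05 of edgeR's quasi-likelihood test over all 12910 genes. The background was 14.3% of all genes called in line 1 (7.55% lower, 6.75% higher) and 3.58% in line 2 (1.85% lower, 1.73% higher). The 5 that fell in line 1 were Peg3, Slc38a4, Ndn, Nnat and Grb10. The median log2 fold change of the 10 genes was -0.98 in line 1, beside 0.01 over all genes, and 0.13 in line 2, beside 0.01. Of the 8 paternally expressed genes 4 fell in line 1 and 2 in line 2, and of the 2 maternally expressed genes 1 fell in line 1 and 0 in line 2. Upwards, DESeq2 called 1 gene (Plagl1) in each line, where it called 6.75% and 2.19% of all genes higher, and the unadjusted p was under 0.05 for 2 genes in line 1 and 3 in line 2. The share of all genes with such an unadjusted p is not given, here or below, so these counts are not read as an excess. With the replicate block, 9 of the 10 genes were called in line 1 and 6 in line 2, beside 32.4% and 12.1% of all genes. In line 1 the block added Plagl1, Snrpn and Impact as higher and Mest as lower. In line 2 it added Plagl1, Grb10 and Snrpn as higher and Ndn as lower. The values of these genes are given one by one below.

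**Figure D1:**
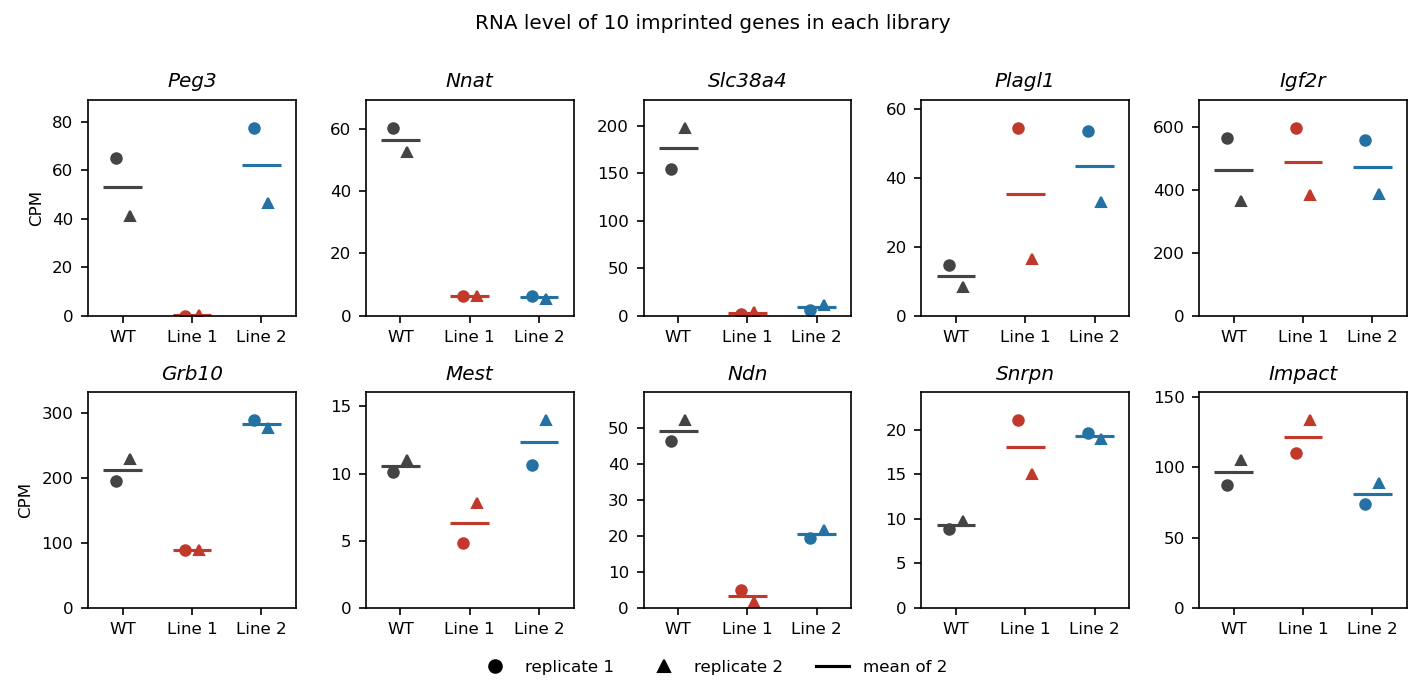
CPM of each of the 10 genes in the 6 libraries (circles replicate 1, triangles replicate 2, bars the mean of 2), each panel with its own axis from 0. Peg3 lies near 0 in line 1 only, Nnat and Slc38a4 are low in both lines, Ndn and Grb10 are lowest in line 1, and the libraries of Igf2r overlap in all 3 groups.

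Peg3 encodes a zinc finger transcription factor named for its paternal expression, known for its part in fetal growth and maternal behaviour. The gene (NM_008817) lies at chr7:6705961-6730419 on mm10, minus strand. Its RNA was at 65.2 and 41.1 CPM in the WT libraries, while line 1 gave 0 and 0.136 and line 2 gave 77.5 and 46.7. The WT and line 2 libraries thus overlapped, and both line 1 libraries lay far below all 4. In reads, as deposited, this was 257.5 and 257 for WT and 319.5 and 330.5 for line 2, but 0 and 0.5 for line 1, where the value of 0.5 rounded to 1 count. Because 1 count against 515 sets the ratio in line 1, it is given with its counting interval: a log2 ratio of -9.12 (95% interval -14.43 to -6.64), or 556-fold lower with a nearest bound of 99.4-fold (edgeR adjusted p = 0.00104). The call held with each library left out in turn (edgeR adjusted p at most 0.00575). For line 2 it came to a log2 fold change of 0.22 (SE 0.33, edgeR adjusted p = 0.886, 95% interval -0.57 to 1.02). The difference between the lines was itself tested, with a log2 ratio of 9.32 (95% interval 6.84 to 14.63) and an edgeR adjusted p of 0.000917. In bulk RNA, fewer cells that express a gene and less RNA in each cell cannot be told apart.

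Plagl1, the other zinc finger factor in the set, regulates growth and lies upstream of a network of other imprinted genes. The gene (NM_009538, chr10:13090789-13131695, plus strand) had 14.7 and 8.32 CPM in the WT libraries, while line 1 gave 54.6 and 16.4 and line 2 gave 53.8 and 33.1. All 4 mutant libraries lay above both WT libraries, and in each group replicate 1 had the higher value. Its log2 fold change reached 1.62 (SE 0.63, edgeR adjusted p = 0.154) in line 1 and 1.94 (SE 0.62, edgeR adjusted p = 0.206) in line 2, so neither passed the test. With the replicate block both passed, at 1.48 (SE 0.29, edgeR adjusted p = 0.00940) and 1.95 (SE 0.28, edgeR adjusted p = 0.00738). DESeq2 without a block also called both, with adjusted p of 0.0222 and 0.0108. The lines themselves differed by 0.32 (95% interval -1.08 to 1.72, edgeR adjusted p = 0.834).

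Igf2r encodes the receptor that carries mannose 6-phosphate enzymes to lysosomes and takes up and removes the growth factor IGF2. The gene (NM_010515, chr17:12682407-12769706, minus strand) had 565 and 366 CPM in the WT libraries, while line 1 gave 598 and 384 and line 2 gave 561 and 389. The 3 groups overlapped, and replicate 1 was the higher in each. The log2 fold change was 0.08 (95% interval -0.69 to 0.84, edgeR adjusted p = 0.921) in line 1 and 0.03 (95% interval -0.74 to 0.80, edgeR adjusted p = 0.991) in line 2. These intervals, from the fit without the block, leave room for a change of up to 0.84 on the log2 scale. With the replicate block the estimates were 0.08 (SE 0.07, edgeR adjusted p = 0.480) in line 1 and 0.04 (SE 0.07, edgeR adjusted p = 0.786) in line 2. Igf2r was the only 1 of the 10 that the replicate block did not call in line 1.

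Grb10 encodes an adaptor protein that binds the insulin and IGF1 receptors and restrains their signalling. The gene (NM_010345, chr11:11930500-12037420, minus strand) had 195 and 229 CPM in the WT libraries, while line 1 gave 88.7 and 88.6 and line 2 gave 288 and 277. The groups did not overlap, with line 1 lowest and line 2 highest. Grb10 fell by 1.26 on the log2 scale in line 1, or 2.39-fold (SE 0.12, edgeR adjusted p = 0.00207). For line 2 it came to 0.41 (SE 0.12, edgeR adjusted p = 0.161), which passed with the replicate block (edgeR adjusted p = 0.0343). Line 2 exceeded line 1 by 1.67 (SE 0.12, edgeR adjusted p = 0.000896).

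Slc38a4 encodes a sodium-coupled transporter of neutral amino acids that is prominent in placenta and liver. The gene (NM_027052, chr15:96994824-97055956, minus strand) had 154.6 and 197.5 CPM in the WT libraries, while line 1 gave 2.16 and 3.55 and line 2 gave 5.81 and 11.6. All 4 mutant libraries lay far below both WT libraries. Slc38a4 changed by a log2 fold change of -5.86, or 57.9-fold lower (SE 0.38, edgeR adjusted p = 0.000688), in line 1. In line 2 it was -4.28, or 19.5-fold lower (SE 0.33, edgeR adjusted p = 0.00514). Line 2 lay above line 1 by 1.57 (SE 0.42, edgeR adjusted p = 0.0615), which the replicate block (edgeR adjusted p = 0.00513) and DESeq2 (adjusted p = 0.00261) called.

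Nnat encodes neuronatin, a small membrane protein of the endoplasmic reticulum that is known from developing brain, and it lies inside an intron of Blcap. The gene (NM_010923, chr2:157560079-157562525, plus strand) had 60.4 and 52.6 CPM in the WT libraries, while line 1 gave 6.22 and 6.41 and line 2 gave 6.30 and 5.36. The 4 mutant libraries lay close together, and both WT libraries lay far above them. Nnat changed by a log2 fold change of -3.15, or 8.89-fold lower (SE 0.20, edgeR adjusted p = 0.000656), in line 1. In line 2 it was -3.28, or 9.74-fold lower (SE 0.21, edgeR adjusted p = 0.00347), a call that was lost without line 2 replicate 2 (-3.16, edgeR adjusted p = 0.0510). The lines differed by -0.13 (95% interval -0.67 to 0.41, edgeR adjusted p = 0.818). Blcap, whose transcripts span Nnat, had 38.3 CPM on average in WT, with 55.1 for line 1 and 45.3 for line 2, with log2 fold changes of 0.53 (edgeR adjusted p = 0.271; with the replicate block 0.0101) and 0.24 (edgeR adjusted p = 0.823). Neuron markers differed in direction in line 2, where edgeR called 2 of the 3 tested lower and 0 higher (median log2 fold change -1.21). Elavl4 had 4.04 and 6.72 CPM in the WT libraries, 0.270 and 0 in line 1 and 0 in both line 2 libraries. Tubb3 had 37.9 and 32.2 CPM in the WT libraries, 7.84 and 5.87 in line 1 and 14.5 and 15.5 in line 2, but Map2, the most abundant of them, had 133 and 167, then 105 and 53.8, then 223 and 195. The part of such RNA in the Nnat values was not tested.

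Mest encodes an enzyme of the alpha/beta hydrolase family in the endoplasmic reticulum that is high in embryonic mesoderm. The gene (NM_008590, chr6:30738051-30748466, plus strand) had 10.1 and 11.04 CPM in the WT libraries, while line 1 gave 4.87 and 7.78 and line 2 gave 10.7 and 14.0. Both line 1 libraries lay below the other 4. Mest differed from WT by a log2 fold change of -0.70 (SE 0.31, edgeR adjusted p = 0.199; with the replicate block 0.0447) in line 1 and 0.23 (SE 0.29, edgeR adjusted p = 0.861) in line 2. The difference of line 2 from line 1 was 0.93 (SE 0.30, edgeR adjusted p = 0.112; with the replicate block 0.0162).

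Ndn encodes necdin, a MAGE family protein that restrains cell growth and is expressed in postmitotic neurons and in cells of mesenchymal origin. The gene (NM_010882, chr7:62348278-62349927, plus strand) had 46.2 and 52.0 CPM in the WT libraries, while line 1 gave 4.87 and 1.77 and line 2 gave 19.4 and 21.6. The groups did not overlap and line 2 lay between the others. Ndn changed in line 1 by a log2 fold change of -4.02, or 16.3-fold lower (SE 0.40, edgeR adjusted p = 0.00225). In line 2 it was -1.26 (SE 0.33, edgeR adjusted p = 0.119), which passed with the replicate block (edgeR adjusted p = 0.0186) and with DESeq2 (adjusted p = 0.0190). The lines differed by 2.76 (SE 0.41, edgeR adjusted p = 0.00855), a call lost without line 2 replicate 2 (2.65, edgeR adjusted p = 0.0521).

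Snrpn encodes SmN, a core protein of spliceosomal ribonucleoproteins, and shares its transcript with Snurf, whose row in the table held the same values, so reads of these genes cannot be told apart. Snrpn (NM_013670, chr7:59982503-60005156, minus strand) had 8.84 and 9.76 CPM in the WT libraries, while line 1 gave 21.1 and 15.0 and line 2 gave 19.6 and 19.0. All 4 mutant libraries lay above WT. Against WT the log2 fold change came to 0.93 (SE 0.24, edgeR adjusted p = 0.0538; with the replicate block 0.0175) in line 1. In line 2 it was 1.05 (SE 0.24, edgeR adjusted p = 0.0848; with the replicate block 0.0209). Snrpn and Ndn lie in the same imprinted domain on chromosome 7 and had opposite signs in each line.

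Impact encodes a regulator of translation that competes with the kinase GCN2 for its activator and so keeps protein synthesis going under amino acid shortage. The gene (NM_008378, chr18:12972253-12992948, plus strand) had 87.7 and 105 CPM in the WT libraries, while line 1 gave 110.0 and 133 and line 2 gave 73.7 and 89.0. Line 1 lay above WT, and line 2 overlapped WT. Against WT, Impact differed by 0.34 (SE 0.17, edgeR adjusted p = 0.264; with the replicate block 0.0201) in line 1 and -0.24 (SE 0.17, edgeR adjusted p = 0.639) in line 2. The difference of line 2 from line 1 was -0.58 (SE 0.17, edgeR adjusted p = 0.0815; with the replicate block 0.00261).

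**Figure D2:**
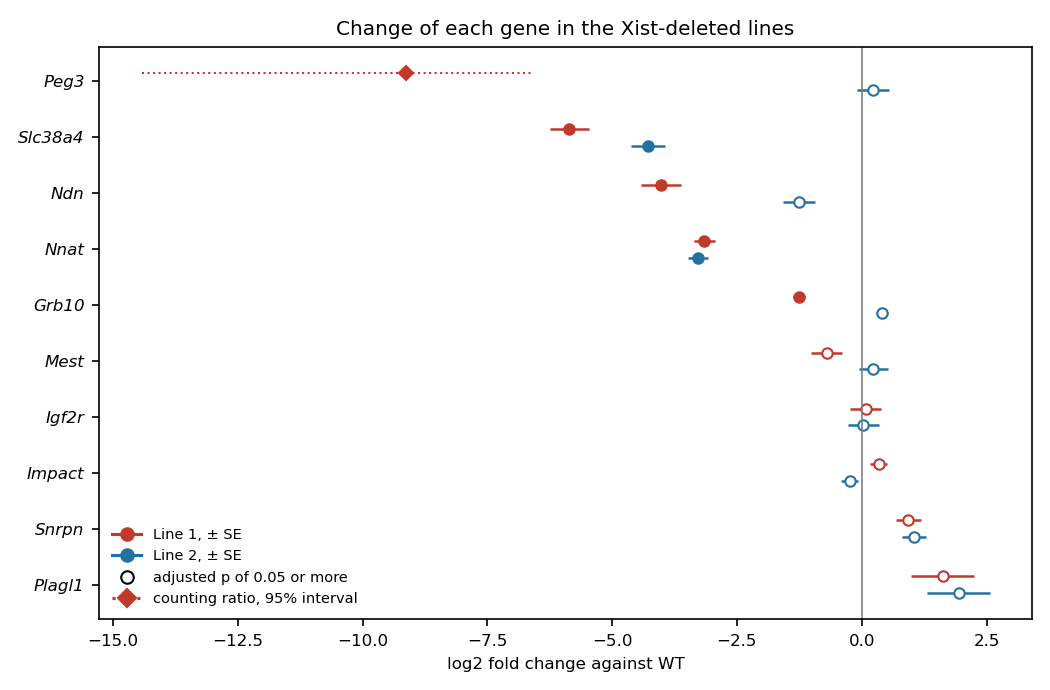
Log2 fold change of each gene against WT in line 1 (red) and line 2 (blue), with bars of ± SE; filled symbols have an edgeR adjusted p under 0.05, and the diamond is the counting ratio of Peg3 with its 95% interval (dotted). Slc38a4 and Nnat are filled on the left in both lines, while Peg3, Ndn and Grb10 are filled in line 1 only.

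The lines were then compared with each other in the same fit, so the WT libraries, which both contrasts above share, entered the estimate of the spread but not the difference. Peg3, Ndn and Grb10 were higher in line 2, and no gene was called lower. The background was 12.6% of genes called (6.87% higher, 5.76% lower). Downwards, DESeq2 also called 0 (6.07% of all genes), and 1 gene, Impact, had an unadjusted p under 0.05. With the replicate block 6 of the 10 were called, beside 27.2% of all genes, adding Slc38a4, Mest and, downwards, Impact. The median log2 difference of line 2 from line 1 was 0.62, beside -0.01 over all genes.

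Without a test, the groups did not overlap for 9 of the 10 genes in line 1, 3 higher and 6 lower, where 25.4% and 25.6% of all genes were separated in these directions. In line 2 it was 3 higher and 3 lower, against 24.9% and 23.9%. Between the lines, 5 genes were separated with line 2 higher and 1 with line 2 lower, against 23.9% and 24.4%. The 3 upward separations in each line, and the 3 downward ones in line 2, are near the share over all genes.

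Per kilobase of exon, the 10 genes spanned a wide range of levels, and the order changed between groups. In WT, Igf2r (52.1 ± 15.8 CPM per kb, SD, n = 2), Nnat (45.3 ± 4.39), Slc38a4 (44.8 ± 7.71) and Grb10 (41.7 ± 4.66) stood highest, and each overlapped the next. Ndn (29.8 ± 2.47) and Impact (28.1 ± 3.60) followed and overlapped each other. Peg3 (8.03 ± 2.57), Snrpn (4.72 ± 0.330), Mest (4.12 ± 0.258) and Plagl1 (2.18 ± 0.851) were lower, each separate from its neighbours in the order. In line 1 Igf2r (55.0 ± 17.0) remained first, Impact (35.5 ± 4.81) and Grb10 (17.4 ± 0.0117) came next without overlap, and Slc38a4 (0.726 ± 0.249) and Peg3 (0.0103 ± 0.0146) closed the order. Between them stood Snrpn (9.17 ± 2.18), Plagl1 (6.75 ± 5.14) and Nnat (5.06 ± 0.112), which overlapped in turn, and below these Mest (2.47 ± 0.804) and Ndn (2.01 ± 1.32), which also overlapped. In line 2 Grb10 (55.5 ± 1.59) and Igf2r (53.2 ± 13.6) overlapped at the top, above Impact (23.7 ± 3.16) and Ndn (12.4 ± 0.939). Snrpn (9.82 ± 0.212), Peg3 (9.38 ± 3.29) and Plagl1 (8.26 ± 2.78) overlapped in turn, Mest (4.80 ± 0.910) overlapped Nnat (4.67 ± 0.534), and Slc38a4 (2.21 ± 1.03) was last. Slc38a4 thus went from rank 3 in WT to rank 9 in line 1 and rank 10 in line 2.

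**Figure D3:**
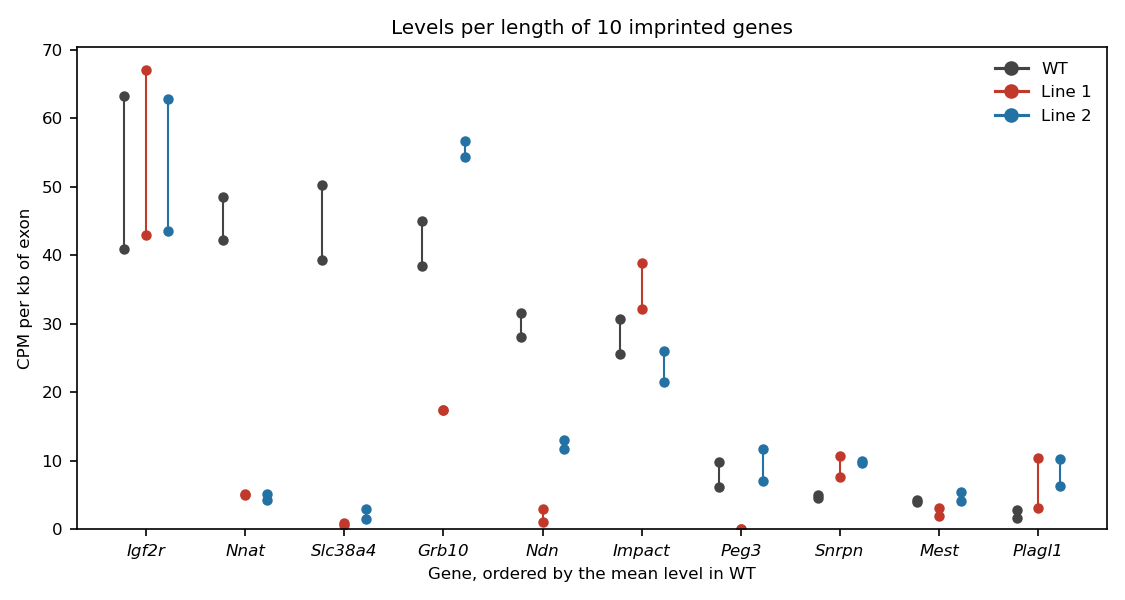
CPM per kb of exon for each gene (points are the 2 libraries of a group, joined by a line), ordered by the mean in WT. Igf2r lies between 41.0 and 67.0 over the 6 libraries, while Nnat and Slc38a4 stand at 39.3 or more in WT and at 5.14 or less in both lines.

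Genes nearest in pattern were sought by the root mean square difference of log2 CPM, each gene centred on its mean over the 6 libraries, among the 10300 genes whose mean log2 CPM was 3 or more. Lower values are more alike, and this is a description of these 6 libraries. The measure is not scaled to the size of a change, so genes that vary little tend to have lower values. Peg3 was nearest to Fbn2 (0.262), which encodes the microfibril protein fibrillin-2, to the fibrillar collagen gene Col5a3 (0.364) and to Trim71 (0.382), all also nearly absent from line 1. Nnat was nearest to Hapln4 (0.324), Lrrc8d (0.512) and Khdrbs3 (0.548). Slc38a4 had no close match by this measure, with Fam189b at 1.11 (Pearson's r over the 6 libraries 0.917), Pde5a at 1.13 and then Nnat at 1.18. Slc38a4 and Nnat were the only pair of the 10 genes among these nearest lists.

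For Ndn the nearest were the transglutaminase gene Tgm2 (0.185), Mycl (0.287) and Vill (0.309). Grb10 was nearest to Egfr (0.0701), the receptor for epidermal growth factor, then Rnf122 (0.119) and Ptx3 (0.138). Plagl1 was nearest to the matrix gene Tgfbi (0.380), Adgrg1 (0.386) and Ly6c1 (0.390). Snrpn, after Snurf at 0 because of shared reads, was nearest to Csad (0.0886) and Azin2 (0.102). The lowest values, apart from that of Snurf, were those of Impact and Igf2r. Igf2r was nearest to Mepce (0.0392), Safb2 (0.0489) and Grb2 (0.0594), and Impact to Ttl (0.0283), Diaph3 (0.0334) and Parp2 (0.0431). Mest was nearest to Lgalsl (0.0995), Arhgap29 (0.105) and Tmem64 (0.105). Of these nearest genes only Snurf, Safb2 and Egfr lie on the same chromosome as the gene they were matched to.

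Around the genes that fell, most neighbours within 500 kb were not called. Near Peg3, 7 other genes were tested, and in line 1 only Peg3os was called. Peg3os is an antisense transcript inside the body of Peg3 (chr7:6706761-6707624), and since the labels and the file header do not state whether counting used the strand, its reads and those of Peg3 cannot be told apart. It had 7.33 and 4.96 CPM in the WT libraries, while line 1 gave 0 and 0.136 and line 2 gave 8.96 and 6.20, a log2 ratio in line 1 of -6.02 (95% counting interval -11.35 to -3.49, edgeR adjusted p = 0.00393). The 6 zinc finger genes Zfp28, Zfp418, Zfp667, Zfp772, Zfp78 and Zfp954, at 309 to 472 kb, had log2 fold changes of -0.89 to -0.18 in line 1, none called, though with the replicate block Zfp418 was (edgeR adjusted p = 0.0265). The other imprinted genes of the Peg3 domain, Zim1 and Usp29, were at means of 0.206 and 0.413 CPM in WT and 0 in line 1, too low to test. Near Nnat, edgeR and DESeq2 called 0 of 11 genes in either line, and 3 had an unadjusted p under 0.05 in line 1 and 0 in line 2. The replicate block called 5 of the 11 in line 1, Blcap, Rbl1, Rprd1b, Src and Tti1, all higher, and 0 in line 2. Over all genes it called 32.4% and 12.1%. Near Ndn, both tools called 0 of 2 genes (Mkrn3 and Peg12) in either line, and 0 had an unadjusted p under 0.05. With the replicate block Peg12 was called lower in both lines, as Ndn was (log2 fold change -0.62, edgeR adjusted p = 0.330 and with the block 0.00971 in line 1; -0.82, 0.378 and with the block 0.00883 in line 2).

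Near Slc38a4, 3 of 4 genes were called in line 1 by edgeR, in both directions, and 2 by DESeq2. Slc38a1, a related transporter gene whose gap to Slc38a4 is 353 kb, had 261 and 248 CPM in the WT libraries, while line 1 gave 8.11 and 9.55 and line 2 gave 125.7 and 124.9. Its libraries did not overlap between any groups. Slc38a1 had a log2 fold change of -4.83 (SE 0.14, edgeR adjusted p = 0.000137) in line 1 and -1.02 (SE 0.11, edgeR adjusted p = 0.0110) in line 2. The line 2 call was lost without any 1 of the 4 libraries, fits in which the calls over all genes in line 2 also fell. Slc38a2, which lies between them, had 393 CPM in WT and 389 in line 1 (log2 fold change -0.02, edgeR adjusted p = 0.956). On the other side Amigo2 (2.10, edgeR adjusted p = 0.0175) and Pced1b (1.47, edgeR adjusted p = 0.0405) were higher in line 1, DESeq2 calling Amigo2 but not Pced1b (adjusted p = 0.0661). In line 2 their log2 fold changes were -0.39 (edgeR adjusted p = 0.828) and -0.69 (edgeR adjusted p = 0.535). The line 1 call of Amigo2 was lost without WT replicate 1 (edgeR adjusted p = 0.0934), and that of Pced1b without either WT library or without line 1 replicate 1 (up to 0.243).

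Near Grb10, 2 of 3 tested genes fell in line 1. Cobl, an actin nucleator gene whose gap to Grb10 is 199 kb and which is imprinted in some tissues, had 23.7 and 17.8 CPM in the WT libraries, while line 1 gave 1.62 and 0.546 and line 2 gave 46.8 and 42.0. Like Grb10 it was lowest in line 1 and highest in line 2. The log2 fold change of Cobl was -4.43 (SE 0.42, edgeR adjusted p = 0.00196) in line 1 and 1.10 (SE 0.29, edgeR adjusted p = 0.121; with the replicate block 0.00893) in line 2. Zpbp, with a gap of 468 kb, had 30 counts in WT and 0 in line 1, which is at least 10.8-fold lower taking a floor of 3 counts for the whole group (edgeR adjusted p = 0.00953). Zpbp was also low in line 2, with 4 counts and a log2 fold change of -3.01 (SE 0.56, edgeR adjusted p = 0.0591, with the replicate block 0.0187). In all, 6 of 27 tested neighbours of the 5 genes that fell were called in line 1 (22.2%, beside 14.3% of all genes). Around the 5 genes that did not fall it was 1 of 31 (3.23%), Ttc39c near Impact (1.21, edgeR adjusted p = 0.0147), lost without either WT library (up to 0.125). DESeq2 called 5 and 2 of these neighbours. The latter include Fuca2 near Plagl1 (1.24, adjusted p = 0.0457), where edgeR gave an adjusted p of 0.113, and 0.00844 with the replicate block. The block called 13 of the 27 and 8 of the 31, beside 32.4% of all genes. The difference between the shares of 22.2% and 3.23% was not tested. Calls around the genes that fell include Peg3os, whose reads cannot be told apart from those of Peg3. Snurf, which shares its reads with Snrpn, is among the 31 tested and among the 8 called with the block. So is Hymai, whose span lies inside that of Plagl1 (2.01 in line 1, edgeR adjusted p = 0.139, with the replicate block 0.0442). Airn and Copg2, whose spans overlap those of Igf2r and Mest, are among the 31 and were not called. Whether these 3 genes share reads with the genes they overlap was not tested. These windows of 500 kb, and the genes named in them outside the fixed lists, were chosen after values were seen.

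**Figure D4:**
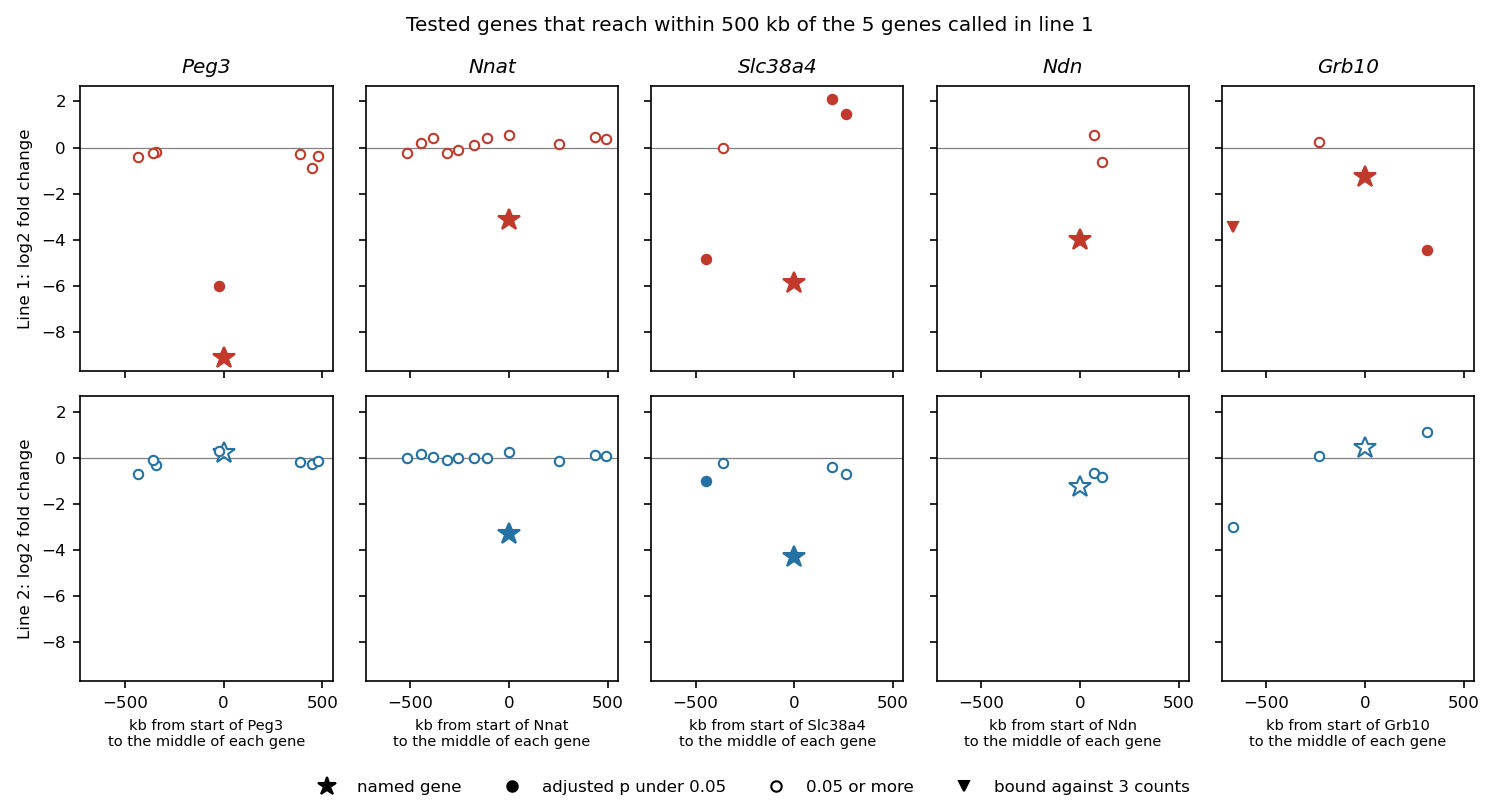
Tested genes in windows that reach 500 kb past each end of the 5 genes that fell in line 1, with the distance from the start of the named gene (star) to the middle of each other gene in kb and the log2 fold change against WT in line 1 (top) and line 2 (bottom); filled symbols have an edgeR adjusted p under 0.05, ratios from 1 to 3 counts are counting ratios, and the triangle is the bound for Zpbp. Peg3, Nnat and Ndn stand apart from their neighbours in line 1, except for Peg3os at the position of Peg3, while genes on both sides of Slc38a4 and Grb10 were also called.

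The 7 fixed lists of related genes were described by their counts and medians, written with earlier results of these data known. Of 31 neighbours with a row, 18 were tested, and 0 rose and 3 fell in line 1 (Slc38a1, Cobl and Peg3os), a share of 16.7% beside the 14.3% of all genes. The 18 include Peg3os and Snurf, whose reads cannot be told apart from those of Peg3 and Snrpn. In line 2 only Slc38a1 fell (5.56%, beside 3.58%), and no neighbour rose. The medians were -0.05 and 0.17. DESeq2 called 3 neighbours in each line, with Phactr2 and Cobl higher in line 2. With the replicate block 8 and 6 of the 18 were called, beside 32.4% and 12.1% of all genes. An unadjusted p under 0.05 was found for 5 neighbours in line 1 and 6 in line 2. Atp10a, a phospholipid flippase gene beyond Ube3a, had 51.8 and 44.8 CPM in the WT libraries, while line 1 gave 82.2 and 67.0 and line 2 gave 30.5 and 30.9. Neither contrast of Atp10a against WT passed (0.63, edgeR adjusted p = 0.0538; -0.65, edgeR adjusted p = 0.116), and with the replicate block both did (0.00752 and 0.0199).

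Other scattered genes that are imprinted in at least some tissues went both ways, and their imprinting in these fibroblasts was not analysed. Of 24, 18 were tested, and 2 rose and 3 fell in line 1 (27.8%, beside 14.3%), with a median of -0.18. Pon3, a lactonase gene next to the imprinted Peg10 domain, had 1.01 and 0.480 CPM in the WT libraries, while line 1 gave 26.5 and 29.1 and line 2 gave 6.06 and 10.3. Pon3 rose by a log2 fold change of 5.28 (SE 0.44, edgeR adjusted p = 0.00133) in line 1 and 3.54 (SE 0.47, edgeR adjusted p = 0.0192) in line 2. The line 2 call was lost without any 1 of the 4 libraries, fits in which the calls over all genes in line 2 also fell. Dcn, which encodes the matrix proteoglycan decorin and is imprinted in placenta, also rose in line 1 (2.19, SE 0.43, edgeR adjusted p = 0.0215), a call lost without WT replicate 2 (0.0586). It is named because the count is small.

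The 3 that fell were Peg13, a noncoding RNA inside Trappc9, Sfmbt2, a Polycomb-related gene, and Jade1. Peg13 had 31.8 and 42.2 CPM in WT against 9.46 and 12.8 in line 1 (-1.71, SE 0.27, edgeR adjusted p = 0.00984) and lost its call without WT replicate 2 (0.0716). Sfmbt2 had 21.98 and 33.1 CPM against 8.92 and 8.19 (-1.70, SE 0.30, edgeR adjusted p = 0.0149) and also lost its call without WT replicate 2 (0.0970). Jade1 fell by 0.63 on the log2 scale (SE 0.12, edgeR adjusted p = 0.0202), lost without either WT library (up to 0.136). In line 2 edgeR called Pon3 alone. The replicate block called 9 of the 18 in line 1 and 6 in line 2, beside 32.4% and 12.1% of all genes. Peg10, a retrotransposon-derived imprinted gene, was at 417 CPM on average in WT, with 293 for line 1 and 319 for line 2 and was not called.

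Few of the factors that keep imprints in place were called. Of 26 tested, 0 rose and 2 fell in line 1 (7.69%, beside 14.3%), with medians of -0.03 and -0.04 in lines 1 and 2. Zfp57, whose protein guards methylated imprints, had 50.0 and 55.4 CPM in the WT libraries, while line 1 gave 30.5 and 36.4 and line 2 gave 47.7 and 45.1. Zfp57 fell by 0.65 on the log2 scale in line 1 (SE 0.16, edgeR adjusted p = 0.0442), and Ehmt1, a histone H3 lysine 9 methyltransferase gene, fell by 0.42 (SE 0.10, edgeR adjusted p = 0.0468). Each of these calls was lost without either WT library or without line 1 replicate 1 (up to 0.292 and 0.296), and DESeq2 called none of this list in either line. Dnmt1, the maintenance DNA methyltransferase gene, was at 552 CPM on average in WT, with 546 for line 1 and 528 for line 2. In line 2 edgeR called 0, and 3 genes of the list had an unadjusted p under 0.05 in each line. Tet1, which encodes an enzyme that oxidizes methylcytosine, had log2 fold changes of -0.40 and 0.86 (edgeR adjusted p = 0.168 in line 2; with the replicate block 0.0206), and Uhrf2 had 0.26 (edgeR adjusted p = 0.146; with the replicate block 0.0370) and -0.13 (0.704). With the replicate block 6 and 3 genes of the list were called in lines 1 and 2, beside 32.4% and 12.1% of all genes.

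The partners of Grb10 and Igf2r were described through 15 tested genes of insulin and IGF signalling. None rose and 2 fell in line 1 by edgeR (13.3%, beside 14.3%) and 2 were called by DESeq2, with a median of -0.15 and 4 genes at an unadjusted p under 0.05. Igf1, a growth factor gene, had 70.7 and 69.9 CPM in the WT libraries, while line 1 gave 11.6 and 13.4 and line 2 gave 58.9 and 58.1. In line 1 the log2 fold change of Igf1 was -2.48 (SE 0.15, edgeR adjusted p = 0.000549), and in line 2 -0.27 (edgeR adjusted p = 0.483). Igf1r, the gene of its receptor, had 387 and 324 CPM in the WT libraries, while line 1 gave 214 and 221 and line 2 gave 338 and 337, and fell by 0.71 on the log2 scale in line 1 (SE 0.13, edgeR adjusted p = 0.0173), lost without either WT library (up to 0.125). Insr (-0.41, edgeR adjusted p = 0.138; with the replicate block 0.0311) and Foxo1 (-0.55, edgeR adjusted p = 0.166) did not pass in line 1, nor in line 2 (0.06 and 0.22). In line 2 edgeR and DESeq2 called 0 of the list, and 1 gene had an unadjusted p under 0.05. Igf2, the ligand removed by Igf2r, was at 0.459 CPM or less on average in every group.

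The remaining lists follow Snrpn, Impact and the gene families. For the 10 Sm protein genes, edgeR, DESeq2 and the replicate block each called 0 in both lines, and 0 had an unadjusted p under 0.05. Their median log2 fold changes were -0.02 and -0.01, and Snrpd2, Snrpf, Snrpa and Snrpc lay between -0.26 and 0.21 in both lines. Of 13 genes of the integrated stress response, on which GCN2 acts, edgeR called Psat1 alone in line 1 (7.69%, beside 14.3%), at a log2 fold change of -0.45 (SE 0.11, edgeR adjusted p = 0.0399), and it lost its call without either WT library or line 1 replicate 2 (up to 0.255). DESeq2 called 2, Psat1 and Slc7a11, and the replicate block 3, these and Asns, where the block called 32.4% of all genes. In line 1 Slc7a11 had -0.98 (edgeR adjusted p = 0.0758; with the replicate block 0.00666), Asns -0.42 (edgeR adjusted p = 0.131; with the replicate block 0.00972) and Phgdh -0.37 (edgeR adjusted p = 0.220). In line 2 edgeR and DESeq2 called 0 of the 13, and 0 had an unadjusted p under 0.05.

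Among 16 tested paralogs and partners, 1 rose and 1 fell in line 1 (12.5%, beside 14.3%), and edgeR called 0 in line 2, where 1 had an unadjusted p under 0.05 and DESeq2 called 0. Mageh1, a MAGE family relative of Ndn, had 17.2 and 14.9 CPM in the WT libraries, while line 1 gave 0.270 and 0.273 and line 2 gave 17.9 and 13.3. With 3 counts in line 1 the log2 ratio of Mageh1 was -5.86 (95% counting interval -8.15 to -4.28, edgeR adjusted p = 0.000780). Plag1, a relative of Plagl1, had 15.4 and 21.6 CPM in the WT libraries, while line 1 gave 46.8 and 41.8 and line 2 gave 14.8 and 16.4. It rose in line 1 by 1.24 (SE 0.22, edgeR adjusted p = 0.0148), lost without WT replicate 1 (0.0921). Plagl2 (0.54, edgeR adjusted p = 0.0885; with the replicate block 0.0121) and Slc38a6 (1.23, edgeR adjusted p = 0.0643; with the replicate block 0.00497) passed in line 1 with the block only.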

How the data were processed

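RNA-seq of 6 libraries (3 groups of 2) was used. The authors deposited expected counts per RefSeq transcript on mm10, made with HOMER over exons without normalization per the file headers, in steps of 0.5. The submitters' processing notes also name Trim Galore 0.4.1, TopHat2, SAMtools and bedtools 2.25.0, and whether counting used the strand is stated neither there nor in the headers. Values were rounded to whole counts (0.5 upwards), 1 transcript with the highest total was kept per symbol (24470 symbols of 28972 transcripts), and filterByExpr (minimum count 10) left 12910 genes. Library totals in the header were 10.5 M to 20.1 M (M, 1e+06 counts). The quasi-likelihood test of edgeR 4.0.16, run in R 4.3.3, was fitted once on all 6 libraries with 1 coefficient for each group and TMM scaling. This left 3 residual degrees of freedom, and the common biological coefficient of variation was 0.17. Adjusted p-values are Benjamini-Hochberg values of this test over all genes tested. Pairing by replicate number was checked through the correlation of replicate differences between groups (0.54, 0.594 and 0.528), which was above 0.1 for every pair of groups, so the blocked fit is printed beside fold changes whose call it changed. Log2 CPM of the 2 replicates of a group correlated at 0.964 to 0.985 (Pearson's r).

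The members, the 7 fixed lists (147 genes) and the markers were chosen with earlier results of these data known. Besides Xist and the 10 genes, up to 4 genes per list were named by the smaller adjusted p over both contrasts against WT, with the 3 genes nearest in pattern to each member, leaving out predicted genes. Genes with 1 to 3 counts in a group are given as ratios with a 95% interval for counting error alone, and genes with 0 counts as bounds against 3 counts. Promoter windows came from RefSeq (GRCm38.p6) and matched 9 of the 10 genes. Alternatives were DESeq2 1.42.0, its size factors, no filter, fits of 2 groups, a replicate block, unrounded values, the longest transcript and leaving out each library. On data simulated from these libraries over 12910 genes, the fit called 41 of 100 genes changed 2-fold in line 1 and 49 of 100 in line 2, and 100 of 100 changed 8-fold. The X-linked allele values and site lists, and tracks of accessibility and BRG1 binding, were not analysed here.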

Additional observations from a re-analysis of the deposited data

Results flagged for a closer look

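The change against WT differed between the lines for 3 of the imprinted genes, for 15 genes of the fixed lists and for 3 more neighbours within 500 kb, by the edgeR test of line 2 minus line 1. Positive values are higher in line 2. The log2 difference was 1.67 for Grb10 and 2.76 for Ndn, and the log2 counting ratio of Peg3 was 9.32. Among neighbours it was 5.53 for Cobl, 3.80 for Slc38a1, 1.81 for Phactr2 and -1.28 for Atp10a, and the counting ratio of Peg3os, whose reads may be those of Peg3, was 6.31. For the neighbours outside the lists it was -2.50 for Amigo2, -2.16 for Pced1b and -0.93 for Ttc39c. Among other imprinted genes and imprint factors it was -3.06 for Dcn, -1.73 for Pon3, -1.46 for Nespas, 0.55 for Gab1 and 1.26 for Tet1. In insulin and IGF signalling it was 2.21 for Igf1 and 0.64 for Igf1r. Among paralogs and partners it was -1.50 for Plag1, -0.55 for E2f1 and, as a counting ratio, 5.78 for Mageh1.

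With each of the 4 libraries of the lines left out in turn, the calls of Peg3, Grb10, Cobl, Slc38a1, Peg3os, Igf1 and Mageh1 held. Ndn and Dcn lost theirs without line 2 replicate 2 (edgeR adjusted p = 0.0521 and 0.0663), and Pon3 without line 2 replicate 1 (0.105). Atp10a, Igf1r, Plag1, Phactr2, Amigo2 and Pced1b lost theirs without either line 2 library, with adjusted p of up to 0.0530, 0.168, 0.0728, 0.134, 0.106 and 0.111. Tet1, Nespas, Gab1 and Ttc39c did so without either line 2 library or line 1 replicate 2 (up to 0.154, 0.160, 0.193 and 0.223), and E2f1 without either line 2 library or line 1 replicate 1 (up to 0.269).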

How the results depend on the processing

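Across 330 alternative values of the 10 genes' 3 contrasts, 300 kept their direction and side of the threshold, 28 passed where the reported fit did not, 2 no longer passed and 0 reversed. Of the 30 contrasts, 17 held under every alternative run. With the replicate block, 9 of the 10 genes were called in line 1 (reported 5), 6 in line 2 (reported 2) and 6 between the lines (reported 3). The block also raised the calls over all genes, from 1846 to 4183, from 462 to 1565 and from 1630 to 3506. In line 2, DESeq2 called 4 of the 10, no filter 5 and a fit of the 2 groups alone 5, beside 581, 948 and 792 over all genes. Leaving out 1 library gave 5 to 7 calls in line 1, 1 to 2 in line 2 and 2 to 4 between the lines. Of the 116 tested genes of the fixed lists, 15 were called in line 1, 2 in line 2 and 15 between the lines. The block raised these to 35, 17 and 32, and in line 2 DESeq2 called 4, no filter 7 and the 2 groups alone 5. Leaving out 1 library gave 7 to 27 in line 1, 0 in line 2 and 6 to 21 between the lines. The cause was not tested. Leaving out a library leaves 1 sample in a group, which is then assumed to vary like the others. Calls over all genes fell without a WT library in both contrasts against WT, and without a line 2 library in both contrasts of line 2. They rose without a line 1 library in both contrasts of line 1. A call lost where all calls fell is thus not particular to that gene. With 2 libraries per group, changes of 2-fold were often missed in simulated data, so a gene not called may still have changed.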
